A study of Homo sapiens with 6 samples.

Results

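The 10 genes described here are 5 ligands of the transforming growth factor beta (TGF-beta) superfamily (GDF15, INHBA, INHBE, TGFB1 and TGFB2) and 5 genes that SMAD proteins switch on or that restrain them (SMAD6, SMAD7, SKIL, ID1 and ID3). They were taken by symbol from a table of 58735 genes, and all 10 were found. The data are RNA-seq of A375, a human melanoma cell line that carries mutant BRAF. Of 6 libraries 3 came from cells given the solvent DMSO and 3 from cells given CuB, both for 6 h. CuB stands for cucurbitacin B in the series title, a plant triterpenoid, and its dose reads 0.2 µM in the protocol but 100 nM in the library names. The title concerns immunogenic cell death and endoplasmic reticulum stress, and setting CuB against DMSO asks which mRNAs differ after treatment.

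Ligands of this superfamily are secreted dimers that bring together type I and type II receptor kinases. TGF-beta and activins act mainly through SMAD2 and SMAD3, and bone morphogenetic proteins (BMPs) through SMAD1, SMAD5 and SMAD9, each joined by SMAD4. SMAD complexes induce their own brakes, among them the inhibitory SMADs and the corepressor SnoN, so that mRNA of these genes is widely used as a readout of the pathway. GDF15 stands apart in using the receptor GFRAL with RET. Its gene is induced in many stressed cells by ATF4, CHOP and p53, and INHBE is also known as a gene of the endoplasmic reticulum stress response.

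Expression is given as FPKM, a fragment count divided by the length of the gene and by a library size, which here was not the fragment total. Levels of different genes can thus be set side by side only approximately. Each library held from 14845976 to 16137093 fragments. A gene was tested when its mean over the 6 libraries was at least 1 FPKM. The test was limma's moderated test on log2(FPKM + 1), with Benjamini-Hochberg adjustment over the 13273 tested genes, and a gene passed at an adjusted p under 0.05. Log2 fold changes below are on this scale, on which the pseudocount shrinks changes at low levels. The labels do not name separate cultures, and each p-value therefore reflects only how far these libraries differ, which may be technical. SOX10, which marks cells of the neural crest lineage, averaged 197.8 FPKM in the DMSO group and 217.9 FPKM in the CuB group. The pigment cell markers PMEL, MLANA, TYR and DCT were each under 1 FPKM in both groups, and MITF averaged 3.96 and 4.42 FPKM. The other 2 genes of that 8-gene list were lower with CuB without overlap: S100B was at 27.6, 24.6 and 27.0 FPKM with DMSO and at 6.82, 6.59 and 6.51 FPKM with CuB, and S100A1 averaged 4.80 and 1.91 FPKM. Of the markers of other cell types, the epithelial list (4 genes) summed to 0.863 to 1.31 FPKM with DMSO and 1.55 to 2.72 FPKM with CuB, nearly all of it KRT14. The leukocyte list (5 genes) summed to 1.64 to 1.82 FPKM and 0.552 to 1.14 FPKM, nearly all of it LYZ. The fibroblast and endothelial lists summed to at most 1.22 and 0.548 FPKM in any library. The part of these shifts in the results below was not tested, and in bulk RNA fewer cells of a type and less RNA per cell cannot be told apart.

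Replicates separated by transcript GC content, and this touches the genes described here. All 7 members with a transcript GC content above 50% (GDF15, INHBE, TGFB1, SMAD6, SMAD7, ID1 and ID3) had their highest DMSO value in replicate 2 and their highest CuB value in replicate 3. INHBA (45.5% GC) and SKIL (37.2% GC) had their lowest values in those same libraries. TGFB2 (38.9% GC) was lowest in DMSO replicate 3 and CuB replicate 1. TGFB2 and INHBE had few fragments with DMSO, 9 and 10 over the group, so their order there is uncertain. Removing a smooth curve on GC content from each library lowered the median SD of the 9 tested members from 0.241 to 0.0769 log2 units with DMSO and from 0.158 to 0.0637 with CuB. The SD fell in 8 of the 9 in each group. It rose for INHBE with DMSO (0.0675 to 0.0956) and for ID1 with CuB (0.0541 to 0.0637). The part of GC content in the differences between groups was not tested, and calls of members that change with this correction are given with it. Over the 10 lists together 60 of 98 tested genes passed, and 77 with the correction. Among all tested genes 38.6% passed, and 58.4% with the correction.

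**Figure D1:**
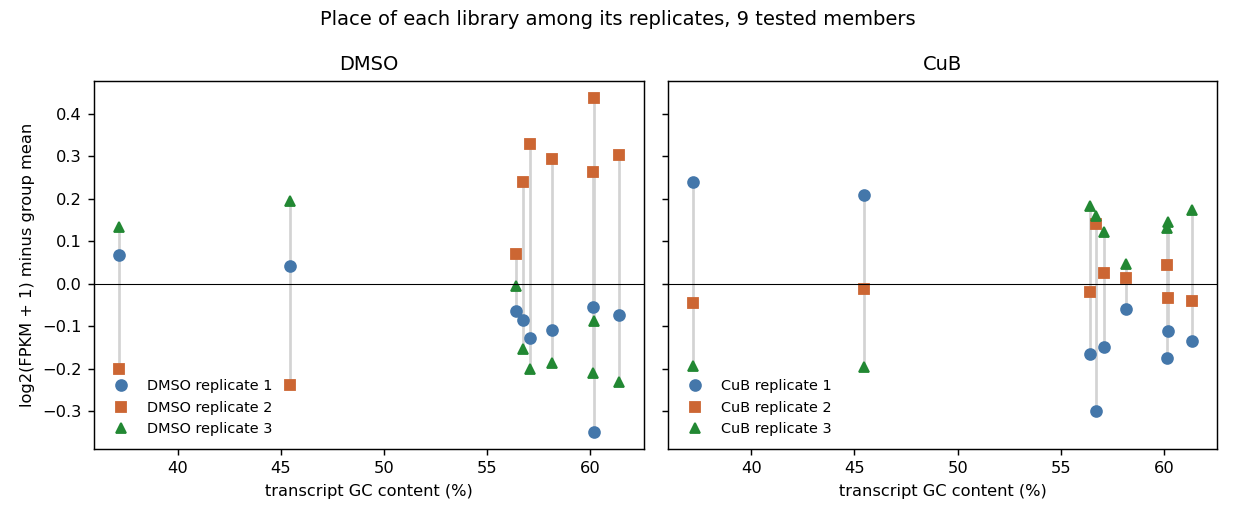
Each point is 1 library's log2(FPKM + 1) of 1 member minus the mean of its group (vertical axis), against the GC content of the gene's transcripts in percent (horizontal axis); grey lines join the 3 replicates of a gene. DMSO replicate 2 lies at the top for every gene above 50% GC and at the bottom for INHBA and SKIL, and CuB replicate 3 does the same among the CuB libraries.

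Of the 10 members 9 could be tested. With CuB 7 rose, 0 fell and 2 did not pass, and each of the 7 had a log2 fold change of at least 1. Among all tested genes 38.6% passed: 22.9% rose, 15.6% fell, and 4.87% rose with a log2 fold change of at least 1. No member was lower at an unadjusted p under 0.05, nor with limma-voom on fragments. The median gene among those tested had a log2 fold change of 0.0548. In 8 members, among them TGFB2, which was not tested, the lowest CuB library exceeded the highest DMSO library. The same held for 29.8% of all tested genes. The opposite held for 0 members and 21.7% of tested genes, so that 51.5% of tested genes had groups that did not overlap. INHBE reached the minimum of 1 FPKM only through its CuB values, so its difference was a condition of being tested, and TGFB2 did not reach it. The 7 members that rose did so in every one of the 20 other settings tried in which they were tested. The log2 fold changes of ID1 and SMAD7 did not stay at 1 or more in all of these settings. They were 0.935 and 0.982 with the GC correction, and 0.844 and 0.909 with equal fragment totals.

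Promoters of 4 members that rose are shown with that of SMAD6, which did not pass, to compare the letters at their starts. Each run covers 250 bases before and 50 bases after the RefSeq start (GRCh38.p14), read 5′ to 3′ on the strand of the gene. Capitals mark TATAAA (the TATA box, in ID1 overlapping a match on the other strand), GTCTAGAC (a palindrome bound by SMADs) and TGACGTCA (the cyclic AMP response element, bound by CREB and ATF family factors).
GDF15, chr19:18385908-18386207, plus strand: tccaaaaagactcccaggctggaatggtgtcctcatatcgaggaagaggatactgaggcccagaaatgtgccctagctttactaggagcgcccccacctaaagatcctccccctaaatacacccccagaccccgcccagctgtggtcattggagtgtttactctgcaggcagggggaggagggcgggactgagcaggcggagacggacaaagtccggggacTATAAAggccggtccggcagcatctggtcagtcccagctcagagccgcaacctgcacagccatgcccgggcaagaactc
INHBA, chr7:41703041-41703340, minus strand: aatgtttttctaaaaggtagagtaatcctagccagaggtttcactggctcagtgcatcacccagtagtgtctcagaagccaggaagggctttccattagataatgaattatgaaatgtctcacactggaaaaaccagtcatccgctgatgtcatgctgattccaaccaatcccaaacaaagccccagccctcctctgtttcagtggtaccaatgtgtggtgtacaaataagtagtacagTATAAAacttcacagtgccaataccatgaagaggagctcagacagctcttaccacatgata
ID1, chr20:31605039-31605338, plus strand: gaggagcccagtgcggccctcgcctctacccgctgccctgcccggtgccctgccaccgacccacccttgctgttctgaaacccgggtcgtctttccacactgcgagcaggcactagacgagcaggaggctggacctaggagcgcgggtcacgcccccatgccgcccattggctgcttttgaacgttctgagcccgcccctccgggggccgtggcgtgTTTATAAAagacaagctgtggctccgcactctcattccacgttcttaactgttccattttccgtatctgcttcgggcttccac
SKIL, chr3:170357465-170357764, plus strand: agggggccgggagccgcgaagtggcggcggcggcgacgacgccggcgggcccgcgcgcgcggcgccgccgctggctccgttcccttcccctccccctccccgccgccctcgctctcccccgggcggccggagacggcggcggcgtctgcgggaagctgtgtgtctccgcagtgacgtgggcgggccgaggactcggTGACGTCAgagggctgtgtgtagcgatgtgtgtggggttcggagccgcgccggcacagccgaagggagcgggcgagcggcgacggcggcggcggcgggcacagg
SMAD6, chr15:66701986-66702285, plus strand: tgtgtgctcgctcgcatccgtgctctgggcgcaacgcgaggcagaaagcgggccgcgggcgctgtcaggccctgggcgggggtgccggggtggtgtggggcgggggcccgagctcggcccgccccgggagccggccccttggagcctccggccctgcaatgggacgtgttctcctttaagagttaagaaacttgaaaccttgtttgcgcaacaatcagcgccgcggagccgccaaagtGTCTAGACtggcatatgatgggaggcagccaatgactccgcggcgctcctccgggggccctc

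Promoter windows were found for 9 of the 10 members, with 3 windows for SMAD7. TATAAA was present in windows of 5 of these 9 (GDF15, INHBA, TGFB2, SMAD7 and ID1) and in 11.5% of all 35116 windows. Counted in bases from the start, it lay at -29 in GDF15 and TGFB2, -31 in ID1, -35 in SMAD7 and -11 in INHBA. A member was counted when any of its windows matched, while the shares are of single windows. GTCTAGAC was found in SMAD6 alone among the 9, and in 0.202% of all windows. TGACGTCA was found in SKIL alone, and in 1.85% of all windows. GGCGNC, a GC-rich element bound by SMADs of the BMP branch, was in 6 of the 9 and in 48.9% of all windows. CAGACA, the repeated SMAD motif, was in TGFB2 and INHBA, and in 16.9% of all windows. TGANTCA, the AP-1 site, and TGATGNAA, the CEBP-ATF response element, were in 0 of the 9 and in 7.71% and 3.62% of all windows. Both strands were searched. A match describes letters in this window and is not evidence of binding.

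Among the ligand genes GDF15, INHBA and INHBE rose. GDF15, a divergent superfamily member released by stressed cells (ENSG00000130513, chromosome 19 from 18374731 to 18389176 on GRCh38, plus strand), was at 0.936, 2.34 and 1.32 FPKM in the DMSO libraries and at 17.6, 18.6 and 21.2 FPKM in the CuB libraries. The lowest CuB library thus lay far above the highest DMSO library. The means were 1.53 ± 0.726 and 19.1 ± 1.85 FPKM (SD, with n = 3 in each group throughout), 12.5-fold apart, with a log2 fold change of 3.02 (SE 0.198, limma adjusted p = 7.05e-05). It was the largest log2 fold change of the 9 tested members at this pseudocount; INHBE exceeded it with a pseudocount of 0.1 (4.20 against 3.64) and with limma-voom on fragments (5.42 against 3.71). The DMSO values rested on 30, 80 and 43 fragments and the CuB values on 519, 577 and 660.

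INHBA encodes the beta A subunit, which pairs with itself to form activin A (ENSG00000122641, chromosome 7 from 41667168 to 41705834, minus strand). It was at 49.5, 40.6 and 55.1 FPKM with DMSO and at 236, 203 and 178 FPKM with CuB. Its mean was the highest of the members with DMSO, although ID1 exceeded it in replicate 2, and the groups were far apart. The means were 48.4 ± 7.34 and 205.5 ± 29.1 FPKM, 4.25-fold apart (log2 fold change 2.07, SE 0.143, limma adjusted p = 9.2e-05). INHBA-AS1, an antisense gene that overlaps INHBA without sharing an exon base, was at 0.372 ± 0.0861 and 2.57 ± 0.404 FPKM (log2 fold change 1.37, limma adjusted p = 0.000383), and reached the minimum of 1 FPKM only through its CuB values. The kit used is unstranded, and reads from unspliced RNA of either gene cannot be told apart there.

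INHBE encodes the beta E subunit of activin E, best known from liver (ENSG00000139269, chromosome 12 from 57452323 to 57459280, plus strand). It was at 0.0216, 0.122 and 0.0637 FPKM with DMSO, which is 1, 6 and 3 fragments. With CuB it was at 2.50, 2.88 and 3.46 FPKM, which is 107, 129 and 156 fragments. The gene was near the limit of detection in every DMSO library and clearly present in every CuB library. The ratio of fragments scaled to library size was 42.2 (exact 95% interval 22.7 to 88.6, counting error only). On the log2(FPKM + 1) scale the fold change was 1.88 (SE 0.136, limma adjusted p = 0.000111), and it was 4.20 with a pseudocount of 0.1. INHBE reached the minimum of 1 FPKM only through its CuB values, so this p-value is not separate support for the difference. Fitted without that minimum, its limma adjusted p was 0.00092.

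TGFB1, the main TGF-beta isoform of many tumour cells (ENSG00000105329, chromosome 19 from 41301587 to 41353911, minus strand), gave overlapping groups. It was at 28.3, 37.0 and 25.3 FPKM with DMSO and at 25.7, 27.5 and 32.1 FPKM with CuB. The means were 30.2 ± 6.1 and 28.5 ± 3.28 FPKM (log2 fold change -0.07, SE 0.153, limma adjusted p = 0.744). After the GC correction the fold change was -0.14 and passed (adjusted p = 0.0323), and missed the threshold with the replicate number as a block as well (0.0611). Without DMSO replicate 2 it turned to 0.08 (adjusted p = 0.583). TGFB1 shares 215 of its 3238 exon bases (6.64%) with HNRNPUL1 on the opposite strand, which was at 62.0 ± 8.57 and 66.4 ± 5.98 FPKM.

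TGFB2, another TGF-beta isoform (ENSG00000092969, chromosome 1 from 218346235 to 218444619, plus strand), was at 0.0506, 0.0474 and 0.0124 FPKM with DMSO. It was at 0.0822, 0.248 and 0.0909 FPKM with CuB. These values rest on 4, 4 and 1 fragments and on 6, 19 and 7 fragments, so this isoform was nearly silent in both groups. The CuB values lay above the DMSO values, and the ratio of scaled fragments was 3.83 (exact 95% interval 1.78 to 9.11, counting error only). Fitted without the minimum of 1 FPKM, the log2 fold change was 0.13 and did not pass (limma adjusted p = 0.244).

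**Figure D2:**
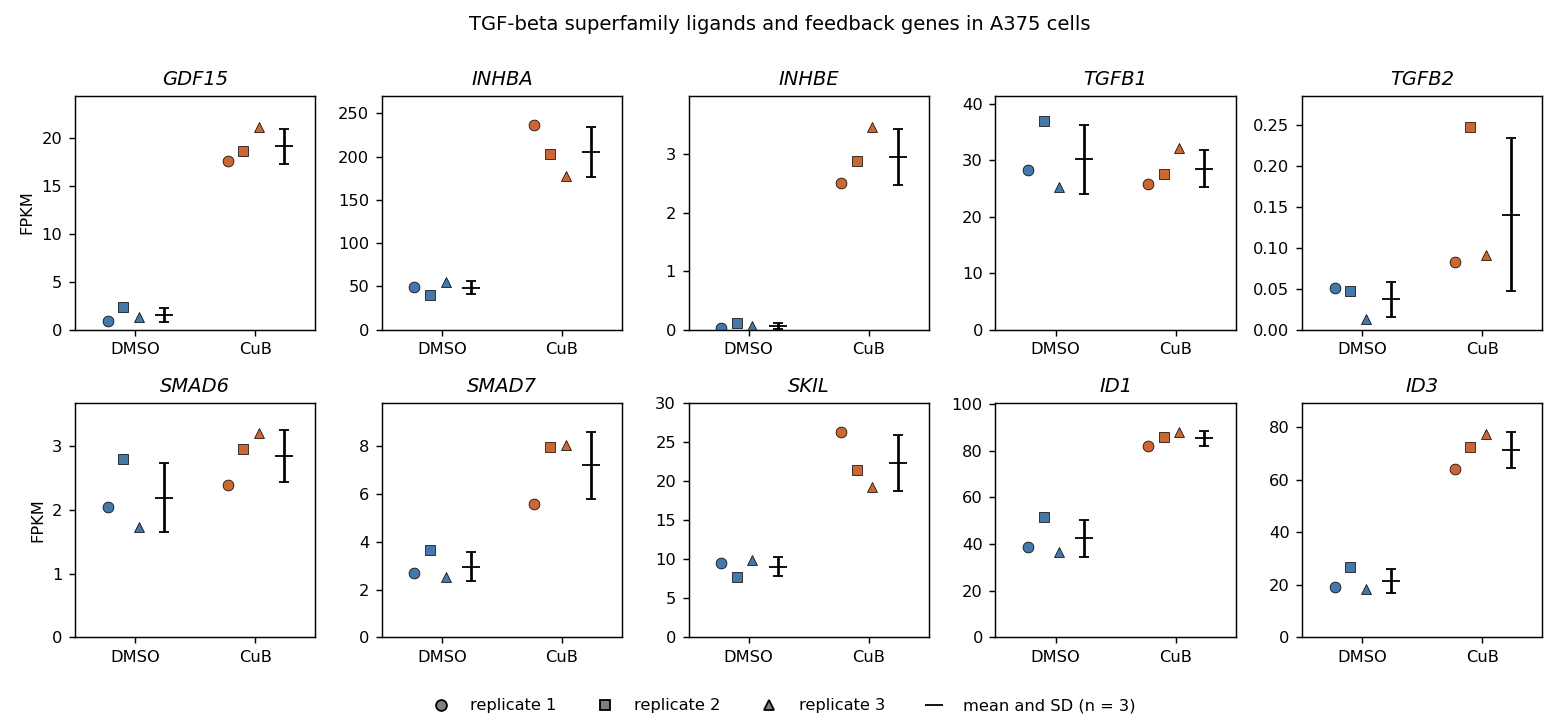
FPKM of the 10 members (vertical axes, linear from 0) in 3 DMSO and 3 CuB libraries, 1 symbol per replicate number, with the mean and SD of each group as a black bar. Groups overlap in TGFB1 and SMAD6; GDF15, INHBA, INHBE, SMAD7, SKIL, ID1 and ID3 are higher in every CuB library than in any DMSO library, and TGFB2 is too, at under 0.25 FPKM.

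INHBA was the most abundant of all ligand mRNAs in each group. Over 33 ligand genes the summed level was 114.5 ± 3.81 FPKM with DMSO and 289.9 ± 23.8 FPKM with CuB. INHBA made up 44.2%, 34.1% and 48.8% of that sum in the DMSO libraries and 74.7%, 71.2% and 66.2% in the CuB libraries. The share of GDF15 was 1.33% ± 0.582 with DMSO and 6.65% ± 1.16 with CuB, and that of TGFB1 was 26.3% ± 4.46 and 9.92% ± 1.9. With CuB, GDF15 and SKIL had values that overlapped, as had TGFB1 and SKIL, while INHBA, ID1 and ID3 stood in that order without overlap. With DMSO, neighbours among INHBA, ID1, TGFB1 and ID3 all overlapped.

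Of 14 TGF-beta and activin type ligands 6 could be tested, and 3 rose and 1 fell. Among all tested genes 22.9% rose and 15.6% fell. GDF11, a close relative of myostatin, fell from 13.9 ± 1.32 to 6.10 ± 0.389 FPKM (log2 fold change -1.07, limma adjusted p = 0.000277). Genes of this list under the minimum of 1 FPKM went both ways. INHA (0.740 ± 0.357 and 0.245 ± 0.194 FPKM) and NODAL (0.152 ± 0.117 and 0 FPKM) were lower with CuB without overlap. TGFB2 was higher, and the others overlapped. Of 19 BMP and GDF ligands 4 could be tested and 2 rose. BMP2 rose from 2.41 ± 0.141 to 8.86 ± 0.682 FPKM (limma adjusted p = 4.52e-05) and BMP6 from 1.63 ± 0.209 to 3.51 ± 0.548 FPKM (limma adjusted p = 0.00327). BMP4, singled out after its values were seen, lay below the minimum with 45, 83 and 42 fragments with DMSO and 1, 2 and 1 with CuB. Its fragments were 39.5 times as many with DMSO after scaling (exact 95% interval 15.1 to 147, counting error only), and it fell in the fit without the minimum (log2 fold change -1.05, limma adjusted p = 0.0087).

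The calls among receptor genes depended on the setting. Of 18 receptors and coreceptors 10 could be tested, 1 rose and 1 fell, with a median log2 fold change of 0.0319; the median was -0.0567 with libraries rescaled to equal sums, -0.0577 with quantiles made equal and -0.110 with equal fragment totals. With the GC correction 3 rose and 3 fell, and with the replicate block 0 passed. Among all tested genes 38.6% passed, and 58.4% with the GC correction. With the replicate block 4443 of 13273 did. The activin type II receptor ACVR2A was at 1.83 ± 0.0706 and 2.62 ± 0.29 FPKM (limma adjusted p = 0.0326) and passed in 8 of 19 other settings; leaving out any 1 of the 6 libraries ended the call (adjusted p from 0.0532 to 0.0901). The BMP type I receptor BMPR1A was at 7.72 ± 1.07 and 5.72 ± 0.266 FPKM (limma adjusted p = 0.0364) and lost the call when DMSO replicate 1, DMSO replicate 3 or any CuB library was left out (adjusted p from 0.0587 to 0.126). TGFBR1 was at 8.03 ± 1.34 and 9.56 ± 1.17 FPKM (adjusted p = 0.229), and TGFBR2 at 13.8 ± 1.16 and 11.0 ± 0.985 FPKM (adjusted p = 0.051). TGFBR2 passed as lower in 10 of 20 other settings, among them without DMSO replicate 2 (0.0238) or CuB replicate 1 (0.0431). GFRAL and RET, the GDF15 receptor pair, were nearly silent in both groups. They were listed at 0 in every library except 1 CuB library each, at 0.0350 FPKM for GFRAL (replicate 3) and 0.0408 FPKM for RET (replicate 1).

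Extracellular regulators included the antagonist of activin. Of 19 genes of ligand latency and antagonism 12 could be tested, 5 rose and 0 fell, with a median log2 fold change of 0.336. With the GC correction 6 rose and 3 fell (ITGB8, LTBP4 and NRROS), and with equal fragment totals the median was 0.181. Among all tested genes 22.9% rose and 15.6% fell, and 58.4% passed with the GC correction. FST, which encodes the activin-binding protein follistatin, was at 49.4, 46.0 and 49.9 FPKM with DMSO and at 309.7, 242 and 227 FPKM with CuB (log2 fold change 2.39, SE 0.122, limma adjusted p = 2.47e-05). Its level was thus close to that of INHBA in each group. The ratio of INHBA to FST was 1.001, 0.883 and 1.11 in the DMSO libraries and 0.762, 0.837 and 0.785 in the CuB libraries. THBS1, an extracellular activator of latent TGF-beta, rose from 28.0 ± 0.697 to 77.6 ± 13 FPKM, and FURIN, a protease that cleaves the ligand precursors, from 31.1 ± 6.19 to 52.0 ± 6.77 FPKM. BAMBI, a pseudoreceptor, rose from 16.4 ± 1.94 to 24.1 ± 2.57 FPKM. FSTL3, a follistatin-like antagonist, rose from 8.07 ± 3.03 to 14.9 ± 2.25 FPKM (limma adjusted p = 0.0246), a call that ended when any of DMSO replicates 1 and 3 and CuB replicates 2 and 3 was left out (adjusted p from 0.0711 to 0.0825).

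**Figure D3:**
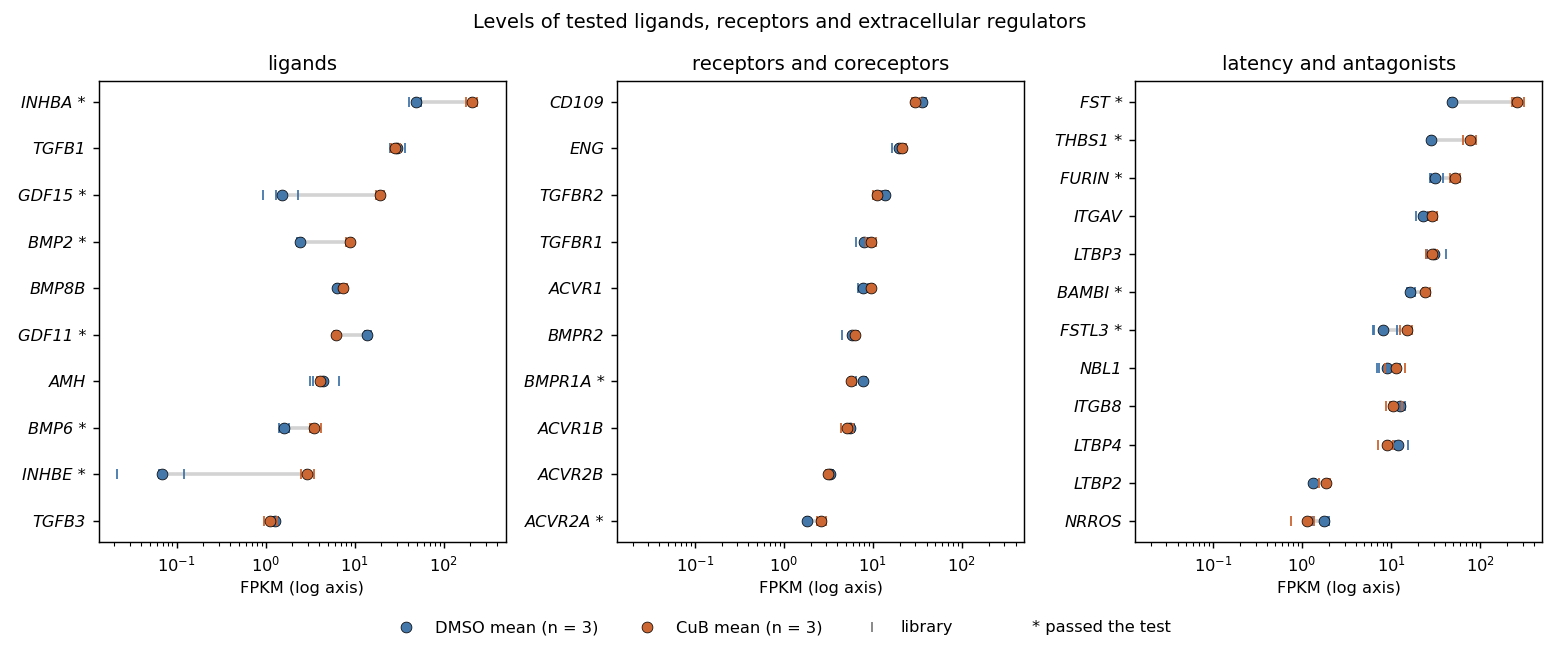
Mean FPKM (log axis) of the tested ligands, receptors and extracellular regulators in the DMSO and CuB groups (n = 3), with ticks for single libraries; an asterisk marks genes that passed the test. INHBA and FST start together near 48 FPKM and end at 205.5 and 259.5 FPKM. Among the receptors ACVR2A is marked as higher and BMPR1A as lower, at 1.43 and 0.741 times their DMSO means.

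Among the intracellular brakes SMAD7 and SKIL rose and SMAD6 did not pass. SMAD7 blocks type I receptors of both branches (ENSG00000101665, chromosome 18 from 48919853 to 48952052, minus strand). It was at 2.71, 3.64 and 2.53 FPKM with DMSO and at 5.59, 7.96 and 8.07 FPKM with CuB. The lowest CuB value, from replicate 1, was still above the highest DMSO value. The means of 2.96 ± 0.596 and 7.21 ± 1.4 FPKM gave a log2 fold change of 1.05 (SE 0.164, limma adjusted p = 0.00296).

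SMAD6, which acts mainly on the BMP branch (ENSG00000137834, chromosome 15 from 66702228 to 66782848, plus strand), was at 2.05, 2.80 and 1.74 FPKM with DMSO and at 2.40, 2.95 and 3.20 FPKM with CuB. The groups overlapped through DMSO replicate 2. The log2 fold change was 0.28 (SE 0.152, limma adjusted p = 0.189). It passed without DMSO replicate 2, at 0.41 (adjusted p = 0.0463), and after the GC correction, at 0.20 (0.0356), and missed the threshold with both the correction and the replicate block (0.0863). After the GC correction 58.4% of all tested genes passed.

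SKIL encodes SnoN, a corepressor that holds SMAD complexes inactive and is degraded on TGF-beta signalling (ENSG00000136603, chromosome 3 from 170357678 to 170396835, plus strand). It was at 9.48, 7.71 and 9.96 FPKM with DMSO and at 26.4, 21.5 and 19.3 FPKM with CuB, without overlap. The means were 9.05 ± 1.19 and 22.4 ± 3.64 FPKM (log2 fold change 1.21, SE 0.141, limma adjusted p = 0.000867). Its paralogue SKI was at 21.6 ± 3.36 and 25.6 ± 3.64 FPKM and did not pass (adjusted p = 0.238).

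Other genes of the same roles were read from lists, beside 22.9% of all tested genes that rose and 15.6% that fell. Among tested genes of the BMP and GDF ligand, latency, SMAD and corepressor lists 0 were lower at an unadjusted p under 0.05 or with limma-voom. This count leaves out genes under the minimum of 1 FPKM, which went both ways. BMP4, BMP7 and LTBP1 were lower with CuB without overlap, and SMAD9 and the nearly silent BMP5 higher. BMP7 had 333 fragments with DMSO and 162 with CuB, and did not pass without the minimum (limma adjusted p = 0.135). Of 8 SMAD genes 7 could be tested and 2 rose, SMAD7 and SMAD3, with a median of 0.204 (0.0855 with equal fragment totals). SMAD3 went from 14.3 ± 0.173 to 18.4 ± 0.659 FPKM (limma adjusted p = 0.00947), a call lost without CuB replicate 2 (0.0543), with equal fragment totals (0.0788) and with quantiles made equal (0.0946). SMAD4, the partner of all receptor SMADs, was at 5.11 ± 0.313 and 5.96 ± 0.597 FPKM (adjusted p = 0.172). Of 12 corepressors and ubiquitin ligases, all tested, 9 rose and 0 fell, with a median of 0.589; WWP1, another ubiquitin ligase, fell with the GC correction, with equal fragment totals, with quantiles made equal and without DMSO replicate 2. NEDD4L, a ubiquitin ligase for SMADs, rose from 6.22 ± 0.481 to 14.1 ± 0.335 FPKM. PMEPA1, which sequesters receptor SMADs, rose from 28.2 ± 3.51 to 56.7 ± 3.95 FPKM. SMURF2 and SMURF1, ubiquitin ligases that SMAD7 brings to the receptors, rose from 8.69 ± 0.531 to 15.1 ± 0.105 FPKM and from 9.73 ± 0.36 to 15.6 ± 0.633 FPKM.

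ID1 and ID3 encode helix-loop-helix proteins that lack a DNA-binding region and hold basic helix-loop-helix factors inactive. They are classical targets of the BMP branch. ID1 (ENSG00000125968, chromosome 20 from 31605283 to 31606515, plus strand) was at 38.8, 51.7 and 36.7 FPKM with DMSO and at 81.8, 86.1 and 88.1 FPKM with CuB. The CuB libraries lay close together and well above DMSO replicate 2, the highest control. The means were 42.4 ± 8.08 and 85.4 ± 3.22 FPKM (log2 fold change 1.01, SE 0.131, limma adjusted p = 0.00137).

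ID3 (ENSG00000117318, chromosome 1 from 23557918 to 23559794, minus strand) was at 19.2, 26.7 and 18.2 FPKM with DMSO and at 63.9, 72.3 and 77.3 FPKM with CuB. The groups were again apart, and DMSO replicate 2 was the highest control. The means were 21.4 ± 4.65 and 71.2 ± 6.77 FPKM (log2 fold change 1.70, SE 0.153, limma adjusted p = 0.000281). The other members of the family differed from each other. ID2 rose from 0.422 ± 0.139 to 1.87 ± 0.0931 FPKM (limma adjusted p = 0.00116), and reached the minimum of 1 FPKM only through its CuB values. ID4 was at 1.87 ± 0.466 and 1.64 ± 0.0403 FPKM (adjusted p = 0.555).

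Whether members of the same role moved alike was asked with the log2 ratio of their values within each library, in 6 pairs, by exact two-sided permutation tests over the 6 libraries. The smallest p that 3 against 3 can give is 0.1, so no pair could pass. The ratio of ID1 to ID3 was 0.979, 0.926 and 0.973 with DMSO and 0.351, 0.249 and 0.186 with CuB (exact p = 0.1, adjusted p = 0.15). With DMSO the SD of this ratio was 0.0289, against 0.258 for ID1 and 0.286 for ID3 on the same log2 scale; with CuB it was 0.0833, against 0.0541 and 0.137. The ratio of SMAD6 to SMAD7 went from a mean of -0.314 ± 0.048 to -1.08 ± 0.115, and that of SKIL to SKI from -1.17 ± 0.382 to -0.188 ± 0.425, each without overlap (exact p = 0.1, adjusted p = 0.15). The ratio of TGFB1 to TGFB2 overlapped between groups (exact p = 0.4, adjusted p = 0.48). Ratios to INHBE changed sign with the pseudocount and are given with the other settings.

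**Figure D4:**
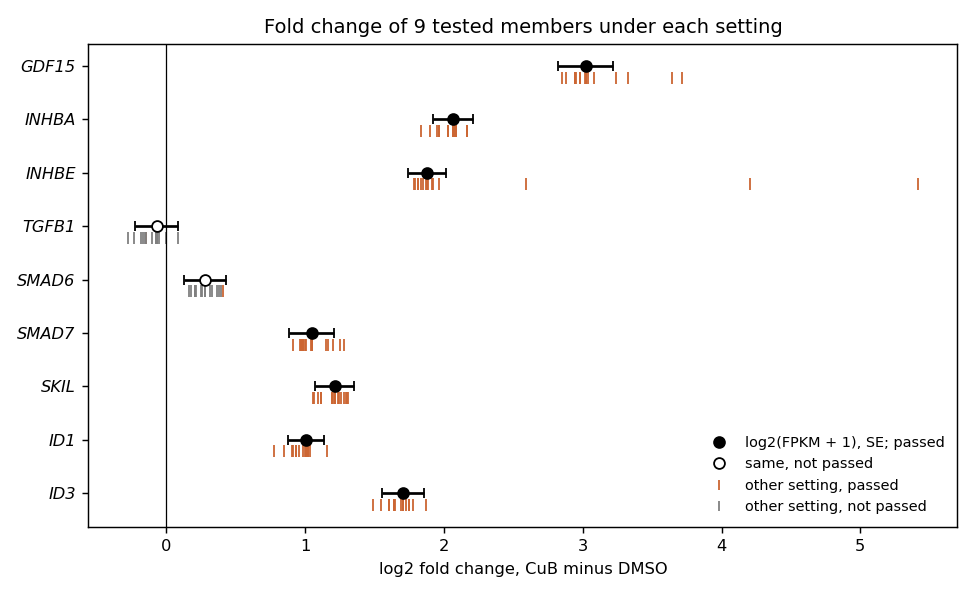
Log2 fold change of the 9 tested members (horizontal axis), as points with the standard error, filled where the gene passed; ticks below each point give the other settings, orange where the gene passed and grey where it did not. GDF15, INHBA, INHBE, SMAD7, SKIL, ID1 and ID3 stay on the right of 0 under every setting, TGFB1 straddles 0, and the widest range is that of INHBE, up to 5.42 with voom on fragments.

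Target genes of both branches were counted from lists, beside 22.9% of all tested genes that rose and 15.6% that fell. Of 24 TGF-beta and SMAD3 target genes 21 could be tested, 16 rose and 0 fell, with a median log2 fold change of 0.987. At an unadjusted p under 0.05, 1 was lower (ADAM19), and with limma-voom 0 were; 2 fell (ADAM19 and HMGA2) with the GC correction, with equal fragment totals and with quantiles made equal, and 1 with equal sums or without DMSO replicate 2. Leaving out SKIL and SMAD7, 14 of 19 rose, with a median of 0.848; SNAI2 was tested only through its CuB values. The cytokine gene IL11 rose from 2.89 ± 0.407 to 69.6 ± 5.25 FPKM, JUNB, an AP-1 subunit, from 34.9 ± 11.3 to 309.5 ± 52.9 FPKM, and KLF10, a TGF-beta inducible zinc finger factor, from 15.2 ± 2.04 to 86.3 ± 9.43 FPKM. BHLHE40, a basic helix-loop-helix repressor, rose from 12.8 ± 1.07 to 69.1 ± 3.4 FPKM. Many of these are also immediate early or stress genes. CTGF, a matricellular growth factor, rose from 4.31 ± 0.267 to 8.15 ± 0.361 FPKM (limma adjusted p = 0.000561). TGFBI, an extracellular matrix protein, averaged 9.71 and 9.48 FPKM in the DMSO and CuB groups and did not pass.

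Of 16 BMP target genes 12 could be tested, 9 rose and 0 fell, with a median of 1.01; 1 was lower at an unadjusted p under 0.05, with limma-voom and with the GC correction (ATOH8). Leaving out the members described above, 6 of 8 rose, with a median of 0.975. DLX2, a homeobox factor, rose from 4.80 ± 0.512 to 20.2 ± 0.835 FPKM, MSX2, another homeobox factor, from 1.42 ± 0.469 to 4.58 ± 0.446 FPKM, and HEY1, a repressor shared with Notch signalling, from 1.52 ± 0.162 to 4.30 ± 0.518 FPKM. ATOH8, a basic helix-loop-helix target, averaged 1.34 FPKM in the DMSO group and 0.666 FPKM in the CuB group and did not pass (adjusted p = 0.0836). ID2 and ATOH8 reached the minimum of 1 FPKM through 1 group only.

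GDF15 and INHBE were set beside genes of the integrated stress response, and GDF15 also beside p53 targets. Among all tested genes 22.9% rose and 15.6% fell, and 58.4% passed with the GC correction. Of 12 stress response genes 11 could be tested and all 11 rose, with a median of 3.18, which counts ATF3, ASNS and VLDLR, tested only through their CuB values. ATF3, a bZIP factor, had a log2 fold change of 5.45, CHAC1, a glutathione-degrading enzyme, 4.12, DDIT3, which encodes CHOP, 3.71, and PPP1R15A, a phosphatase subunit, 3.65. ATF4 had a log2 fold change of 1.12. Of 12 p53 target genes, all tested, 6 rose and 1 fell (ZMAT3, an RNA-binding protein), with a median of 0.435; with the GC correction 8 rose and 1 fell. BBC3 and PLK3, a pro-apoptotic gene and a polo-like kinase, had log2 fold changes of 2.35 and 2.30, and TNFRSF10B, a death receptor, and CDKN1A, a cell cycle inhibitor also counted among TGF-beta targets, 1.36 and 1.31.

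**Figure D5:**
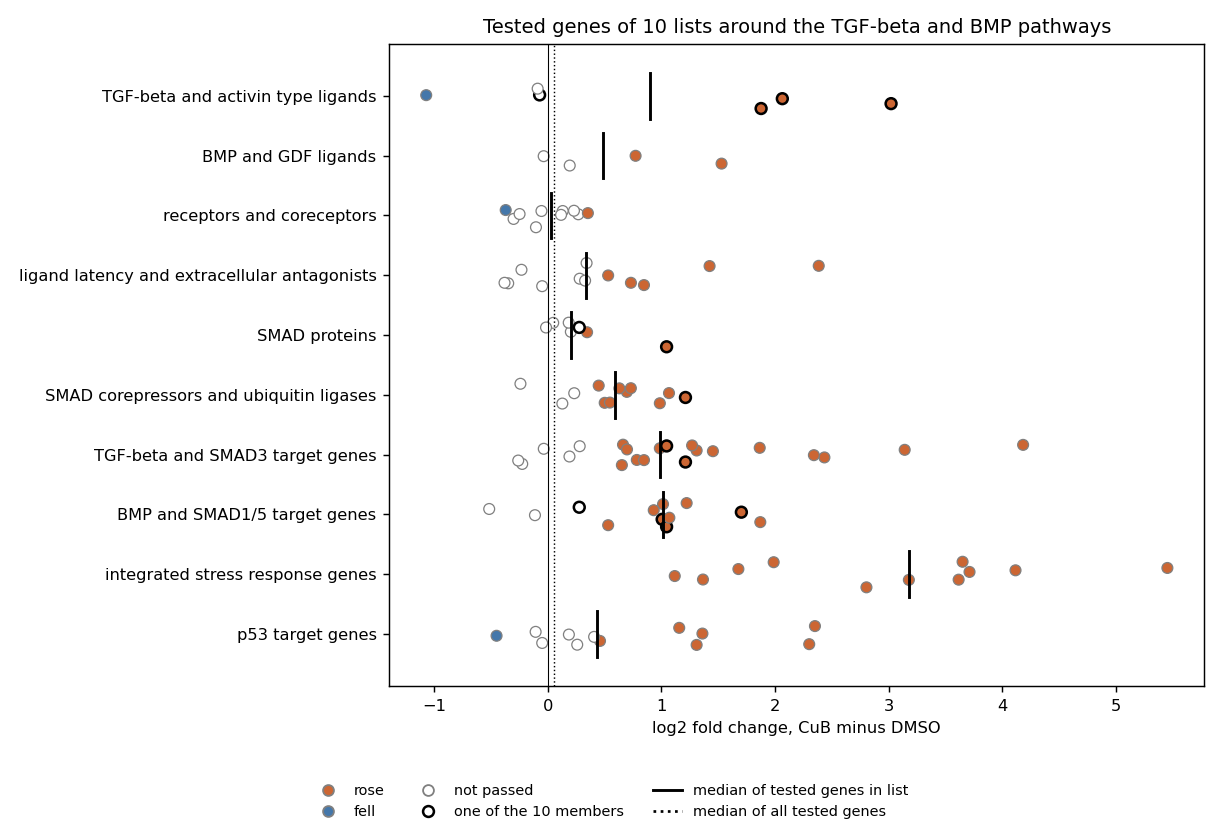
Log2 fold change (horizontal axis) of every tested gene in 10 lists, orange where it rose, blue where it fell and white where it did not pass; heavy outlines mark the members, solid bars the list medians and the dotted line the median of all tested genes at 0.0548. Receptors lie on both sides of 0, SMAD7 stands at 1.05 apart from the other SMAD genes, and corepressors, target genes and stress response genes lie mostly to the right.

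The genes whose log2(FPKM + 1) over the 6 libraries followed GDF15 most closely were ROBO4, AJAP1 and CEBPB, with a Pearson r of 0.9998, 0.9992 and 0.9991. CEBPB, a bZIP factor and partner of CHOP, went from 26.7 ± 5.34 to 108 ± 4.61 FPKM. For ID1 they were STX1A, TRIM8 and AC141586.1, with r of 0.9989, 0.9986 and 0.9985. These values are a description over 6 points that share the 2 treatment groups and their libraries, and 240 genes reached an r of at least 0.99 with GDF15 and 179 with ID1.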

How the data were processed

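Polyadenylated RNA from 6 samples of A375 cells was measured with an unstranded TruSeq kit, per the labels' protocols. The deposited table gives FPKM as the authors computed it, with gene coordinates and length. GRCh38 is the only build in the submitters' processing notes. Which aligner, counter and scaling produced the FPKM is not given in the sources used here. Coordinates of all 58735 genes were those of GENCODE 29, which gave GC content (known for 13265 tested genes) and exons. Promoters came from RefSeq (GRCh38.p14).

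Fragments were recovered from the FPKM steps and gene lengths, and 100% of nonzero values were whole to within 0.01. The FPKM imply library sizes 1.033 to 1.036 times the fragment totals with DMSO and 0.914 to 0.927 times with CuB. The deposited scaling thus places CuB values higher relative to DMSO than equal fragment totals would. Divided by median-of-ratios size factors, these sizes varied over a range of 0.873%. Replicate pairs differed by more than sampling noise, and none was merged. Intervals cover counting error only.

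The log2(FPKM + 1) values were fitted with limma 3.58.1 in R 4.3.3, with an intensity trend, 4 residual degrees of freedom and no replicate block. Named genes are the 10 members, up to 4 of the largest passing genes per list and the 3 genes most like GDF15 and ID1; others were chosen after their values were seen. The members, the 10 lists (143 genes), pairs and motifs were chosen with earlier results of these data known. The 20 other settings were pseudocounts of 0.1 and 0.5, no minimum, a minimum mean of 5 FPKM, equal sums, median of ratios, quantile normalization, equal fragment totals, limma without trend or robust, limma-voom on fragments, the replicate block, a GC correction (lowess span 0.3), both together, and each library left out. The limma step was tested on simulated data with 200 changed genes per run and without the GC-related shifts between replicates seen here. It recovered 26.43% of 1.5-fold, 85.45% of 2-fold and 98.71% of 4-fold changes, and 6.85% of its calls were false. Some results for single genes are left out here.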

Additional observations from a re-analysis of the deposited data

How the results depend on the processing

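The 7 members that rose kept their direction and passed under each of the other settings in which they were tested. The number of all genes that changed was 5118, and it was 3250 with a minimum mean of 5 FPKM, where fewer genes were tested, and 7743 with the GC correction; leaving out 1 library gave from 3262 (without CuB replicate 2) to 5755 (without DMSO replicate 2), and the cause was not tested. The share of these calls that were higher was 59.5% as deposited, 46.7% with equal sums, 47.2% with quantiles made equal and 39.3% with equal fragment totals, where the median gene moved from 0.0548 to -0.0841 on the log2 scale. The 10 lists held 60 changed genes of 98 tested, and from 49 to 77 under the other settings. Of all tested genes 38.6% changed, and 58.4% with the GC correction. With the replicate block 4443 genes changed, and of the named genes BMPR1A and ACVR2A lost the call; the members' calls were kept. Deviations of same-numbered samples had correlations of 0.269, 0.119 and -0.357, and samples did not all correlate best with their own number, so the numbers were not taken as a pairing. Leaving out 1 library gave TGFB1 a log2 fold change from -0.186 to 0.0810 and ID4 from -0.205 to 0.0151, both turning without DMSO replicate 2. The ratio of INHBA to INHBE moved by 0.187 with a pseudocount of 1, but by -2.12 with 0.1 and -0.52 with 0.5, and that of GDF15 to INHBE by 1.14 and by -0.56 with 0.1; by construction the larger pseudocount compresses INHBE, which had 10 fragments over the DMSO group. The GC correction of the ratios was added after seeing the data and reversed none of the 5 it could give; the pair with TGFB2 has no value there. TGFB2, with 9 fragments over the DMSO group and 32 over the CuB group, did not pass without the minimum level.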
